A study of Homo sapiens with 12 samples.

Results

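PCNA, the clamp loader subunits and the flap endonuclease FEN1 were followed as 10 genes of the 58233 in the count table: PCNA, RFC1, RFC2, RFC3, RFC4, RFC5, CHTF18, DSCC1, ATAD5 and FEN1. They were taken by gene name, and all 10 passed the filter on low counts, which 16657 genes passed. PCNA is a ring-shaped trimer that slides along DNA and holds replicative polymerases and many other proteins at the fork. It is opened and closed around DNA by replication factor C (RFC), made of the large subunit RFC1 and the small subunits RFC2 to RFC5. In related complexes RFC1 is replaced by CHTF18, which works with DSCC1 and CHTF8 and is linked to sister chromatid cohesion, or by ATAD5, which takes PCNA off DNA once replication is done. FEN1 is anchored to PCNA and trims the flaps of Okazaki fragments, the short pieces of which the lagging strand is made.

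The cells were HCT116, an established human colorectal carcinoma line. Parental cells (HCT116 Tet-OsTIR1) hold an inducible transgene for OsTIR1, a plant F-box protein, which Dox turns on and which sits at AAVS1 on each chromosome copy. SDS22-degron cells, labelled HCT116 Tet-OsTIR1 SDS22 WT, were derived from them and in addition carry an mAID-mClover tag at both alleles of PPP1R7, the gene of SDS22, a regulator of protein phosphatase-1. Each line was left untreated or kept for 48 h in 2 µg/ml doxycycline (Dox) plus 500 µM of the auxin IAA (Dox/IAA), with 3 libraries in each of the 4 groups and 12 in all. Dox switches on OsTIR1 and IAA directs the tagged SDS22 protein to degradation, so that treated parental cells received both agents with no degron on SDS22. Each line was a single cell line, and in comparisons between the lines the tag cannot be told apart from other differences between these cells.

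Poly-A selected RNA was measured, and the total count on genes was 12133915 in the shallowest and 14657508 in the deepest library. The mRNA of PPP1R7 lay between 40.1 and 51.1 CPM in all 12 libraries (CPM, the count scaled to the normalized size of its library) and was called in none of the 5 comparisons. The degron acts on the protein, so this level does not check the depletion. Of 6 markers of colorectal epithelium, 5 were at 1 CPM or more in every library, and CEACAM5 was not. The fibroblast markers COL1A2, DCN and LUM were at 0 throughout. COL1A1, the remaining fibroblast marker, was between 9.88 and 13.4 CPM in untreated parental, 17.2 and 22.8 in treated parental, 13.6 and 15.7 in untreated degron and 21.2 and 31.7 in treated degron libraries. The summed leukocyte markers stayed at or under 0.607 CPM and the endothelial markers at or under 1.73 CPM.

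The promoter windows of the RefSeq tables (build GRCh38.p14; 250 bases before and 50 after the annotated start) were searched because genes of the replication machinery are classical targets of E2F factors. Windows were found for 8 of the 10 genes, with 2 for PCNA, and those of ATAD5 and DSCC1 were not used here. The E2F core was searched on both strands. The forms counted were TTCCCGC as well as TTGGCGC. Also counted were TTCGCGC as well as TTGCCGC. A match was present in 6 of the 8 genes, PCNA and RFC1 to RFC5. The same letters were found in 13% of all 35116 windows. CCAAT, on both strands, was found in 4 genes, PCNA, RFC1, RFC5 and CHTF18, against 34.6% of all windows. The cell cycle homology region, searched as TTTGAA or TTCGAA on both strands, was found in 0 of the 8 genes and in 16.4% of all windows. The E2F letters were settled after the windows of these genes had been seen, and a match of letters is not a measured binding site. The 250 bases before the first PCNA start are shown because they hold an E2F core and 3 CCAAT boxes, all in capitals (minus strand of chr20:5126623-5126872).
PCNA: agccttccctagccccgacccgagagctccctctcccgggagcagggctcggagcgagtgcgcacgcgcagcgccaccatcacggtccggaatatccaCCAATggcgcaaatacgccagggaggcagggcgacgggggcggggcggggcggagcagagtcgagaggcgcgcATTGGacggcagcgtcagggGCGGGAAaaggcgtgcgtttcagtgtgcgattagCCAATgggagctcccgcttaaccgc

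For RFC1 to RFC5, the 30 bases around each E2F core are shown so that the cores can be compared; capitals mark the core, which reads GCGGGAA or GCGCGAA where it lies on the opposite strand. The stretch of RFC1 (minus strand, chr4:39366313-39366342) holds overlapping matches on both strands. Those of RFC2 (minus strand, chr7:74254386-74254415) and RFC3 (plus strand, chr13:33818083-33818112) hold 1 each. RFC4 (minus strand, chr3:186806474-186806503 and chr3:186806442-186806471) has a core on either side of the start, and RFC5 (plus strand, chr12:118016707-118016736) has 1 after it.
RFC1: cgcgggagaagttgTTGGCGCGAAtggatc
RFC2: tgcctcgggtgGCGGGAAgaggaggcgcga
RFC3: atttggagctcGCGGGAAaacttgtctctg
RFC4, before the start: ctaccggcgtaTTCCCGCcctgcttttcgc
RFC4, after the start: gccgttccgtgGCGGGAActgaggcgactg
RFC5: gttgcttttgcGCGCGAActgtaagtgcca
The windows of CHTF18 and FEN1 did not hold these letters.

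The first question was what happened to the clamp and its loaders when Dox/IAA was given to cells in which SDS22 carries the degron. All 10 transcripts fell, with no overlap between treated and untreated degron libraries for any of them. The fall ranged from 1.25-fold for RFC1 to 3.00-fold for DSCC1, and 7 of the 10 also passed the cut-off for differentially expressed genes (DEGs), which asks for an unadjusted p under 0.05 and a log2 fold change beyond 1 in either direction. At an adjusted p under 0.05 by the quasi-likelihood F test of edgeR, 10 of 10 were lower, where 25.5% of all tested genes were lower. The 7 DEGs compare with 4.02% of tested genes that were DEGs in this direction, and libraries did not overlap, in this direction, for 29.7% of tested genes. The median log2 fold change of the 10 was −1.25, against 0.00 for all tested genes. In bulk RNA, a smaller share of cells that express a transcript and less of it per cell cannot be told apart.

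The clamp itself had a smaller fold change than 7 of the other 9 genes. PCNA (ENSG00000132646, chr20:5114953-5126626, minus strand, 7 exons) stood at 276, 290 and 284 CPM in the untreated degron libraries (replicates 1 to 3) and at 169, 160 and 146 CPM in the treated ones. Treated cells thus held 55.8% of the untreated level, a log2 fold change of −0.84 ± 0.09 (SE; adjusted p = 2.91e-07, edgeR). In parental cells PCNA was 226, 279 and 234 CPM without and 190, 233 and 200 CPM with Dox/IAA, 2 groups that overlapped. The parental log2 fold change of −0.25 (95% confidence interval −0.43 to −0.06) was called in edgeR with an adjusted p of 0.0370. That call was lost without untreated parental replicate 2 (−0.14), and also without treated parental replicate 1 (−0.18) or 3 (−0.22). It was also lost with upper-quartile scaling (−0.22), with library size only (−0.19) and with only the groups compared (−0.24), and held under 17 of 23 alternatives in all. The processed pseudogenes PCNAP3 and PCNAP4 took 163 to 382 and 62 to 146 counts per library, so that reads of near-identical sequence may have been split between them and PCNA.

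**Figure D1:**
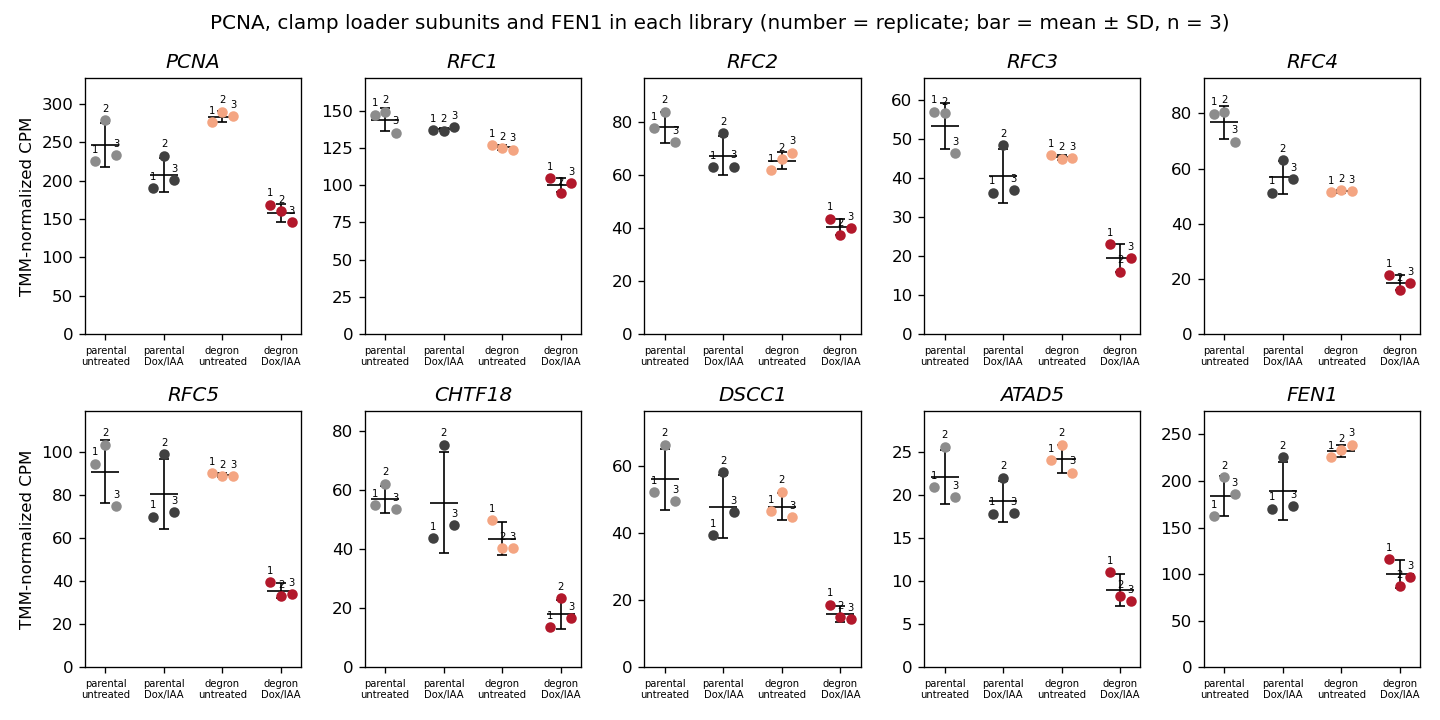
Level of each transcript in each of the 12 libraries, in TMM-normalized CPM from 0, with the replicate number above each point and the group mean ± SD (n = 3) as a bar. The treated degron libraries lie below all other libraries of the same gene in every panel, and treated parental replicate 2 lies above replicates 1 and 3 in every panel except that of RFC1.

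The small RFC subunits, which all loaders of this family share, fell by unequal amounts. RFC4 (ENSG00000163918, chr3:186789880-186807058, minus strand) went from 51.3, 52.1 and 51.7 CPM in untreated to 21.4, 16.1 and 18.4 CPM in treated degron cells, a log2 fold change of −1.47 ± 0.10 (adjusted p = 3.54e-09, edgeR). RFC5 (ENSG00000111445, chr12:118013588-118033130, plus strand) went from 90.3, 89.1 and 89.0 to 39.7, 33.1 and 33.8 CPM, a change of −1.33 ± 0.13 on the log2 scale. RFC3 (ENSG00000133119, chr13:33818049-33966558, plus strand) went from 46.0, 45.0 and 45.1 to 23.1, 16.0 and 19.5 CPM, or −1.21 ± 0.13. The treated levels of these 3 were between 36.1% and 43.1% of the untreated ones. RFC2 (ENSG00000049541, chr7:74231499-74254458, minus strand) kept 61.6%, with 62.0, 66.1 and 68.6 CPM before and 43.6, 37.6 and 39.9 CPM after treatment (log2 fold change −0.70 ± 0.09). Its 95% interval, −0.88 to −0.52, did not reach those of RFC3, RFC4 and RFC5, whose upper bounds were −0.95, −1.26 and −1.06.

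RFC1, the large subunit of the canonical loader, moved least. RFC1 (ENSG00000035928, chr4:39287456-39366375, minus strand, 33 exons) was 127, 125 and 124 CPM in untreated and 104, 94.7 and 101 CPM in treated degron cells. The groups were apart, and 79.9% of the level remained (log2 fold change −0.32, 95% interval −0.45 to −0.19, adjusted p = 0.000252, edgeR). No other of the 10 genes had an interval that reached into that of RFC1.

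The subunits of the alternative loaders had larger fold changes than RFC1. DSCC1 (ENSG00000136982, chromosome 8), the partner of CHTF18, went from 46.4, 52.3 and 44.6 to 18.6, 14.8 and 14.3 CPM, or 33.3% of the untreated level (log2 fold change −1.58 ± 0.14, adjusted p = 6.71e-08, edgeR). ATAD5 (ENSG00000176208, chr17:30831970-30895869, plus strand), the subunit of the unloading complex, went from 24.1, 25.9 and 22.6 to 11.1, 8.21 and 7.66 CPM, or 37.2% (−1.43 ± 0.14). CHTF18 (ENSG00000127586, chr16:788046-800737, plus strand) went from 49.8, 40.2 and 40.2 to 13.6, 23.3 and 16.5 CPM, or 41.0% (−1.29 ± 0.19). All 3 pairs of groups were apart, and CHTF18 had the widest interval of the 10, −1.68 to −0.89. FEN1 (ENSG00000168496, chr11:61792637-61797244, plus strand, 2 exons) went from 226, 233 and 239 to 116, 87.0 and 96.7 CPM, or 43.0% (−1.22 ± 0.11, adjusted p = 7.31e-08, edgeR).

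Some of these genes share positions with others in the deposited table. FEN1 overlaps FADS2 on the same strand over 4265 bases, and FADS2 had 259 to 479 counts per library against 1124 to 3386 for FEN1. RFC4 overlaps EIF4A2 by 21 bases, RFC5 overlaps WSB2 by 437 and CHTF18 overlaps RPUSD1 by 352, each on the opposite strand. Libraries were made with a strand-marking kit, but the strand setting of the counting is not given in the sources used here, so reads of these shared bases may not be separated. FEN1P1, a pseudogene of FEN1, had 32 to 119 counts per library, and RFC3P1 had 0 to 10.

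The effect of the agents themselves was read in parental cells. There 3 of the 10 transcripts fell in the fit without a replicate block, against 15.7% of all tested genes that were lower. With the block, RFC2 was called as lower as well. The number that rose was 0 by edgeR, against 15.9% of tested genes, and 0 also at an unadjusted p under 0.05, by the likelihood ratio test and by DESeq2. RFC4 changed from 79.9, 80.6 and 69.8 to 51.3, 63.0 and 56.1 CPM, a log2 fold change of −0.44 ± 0.09 (adjusted p = 0.00143, edgeR). RFC4 was also the only gene of the 10 whose parental libraries did not overlap, which 20.2% of tested genes showed in this direction. RFC3 changed from 57.1, 56.7 and 46.5 to 36.3, 48.5 and 37.0 CPM, with overlapping groups and a log2 fold change of −0.40 ± 0.12 (adjusted p = 0.0164, edgeR). PCNA, described above, was the remaining one. The other 7 had log2 fold changes between −0.23 for DSCC1 and 0.04 for FEN1, and no gene of the 10 passed the DEG cut-off, as 0.792% of tested genes did in this direction. The median of the 10 was −0.21, against 0.00 for all tested genes.

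The parental counts of called genes changed when single libraries were left out, which also makes a group smaller. Treated parental replicate 2 lay above its group mean for 9 of the 10 genes, by a median of 0.23 on the log2 scale, where the median over all genes was 0.00. Untreated parental replicate 2 lay above its own group mean for 10 of 10, by a median of 0.14. Without treated parental replicate 2, 6 of the 10 were lower with Dox/IAA, and without treated replicate 1, treated replicate 3 or untreated replicate 2 only RFC4 was. RFC3 was also not called without untreated replicate 1 (−0.35), and RFC2 was called without untreated replicate 3 (−0.27). A block for the replicate number, which the pairing check allows for this comparison, added a call for RFC2 (log2 fold change −0.21, adjusted p = 0.0427 by edgeR against 0.0615 without the block).

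**Figure D2:**
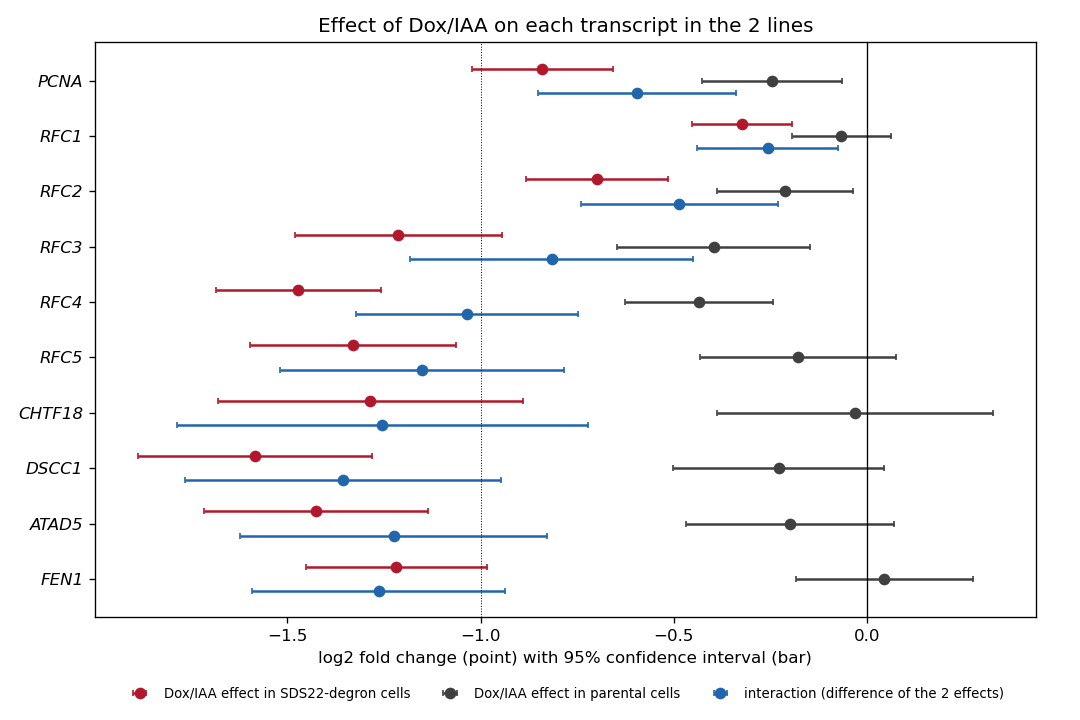
Log2 fold change of each transcript with Dox/IAA in SDS22-degron cells and in parental cells, and the interaction, which is the difference between these effects; points are estimates from 3 libraries a group and bars are 95% confidence intervals. The dotted line marks a log2 fold change of −1. The degron estimates run from −1.58 for DSCC1 to −0.32 for RFC1, and the parental ones from −0.44 for RFC4 to 0.04 for FEN1.

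Whether the lines responded differently was tested by the interaction of cell line and Dox/IAA, which draws on both effects above. It was below 0 for all 10 genes and called for 9, against 8.35% of tested genes called in this direction, and 6 passed the DEG cut-off (2.46% of tested genes). The median of the 10 was −1.09, against 0.00 for all tested genes. The difference was −1.36 ± 0.19 on the log2 scale for DSCC1, −1.26 ± 0.16 for FEN1, −1.25 ± 0.25 for CHTF18 and −1.23 ± 0.19 for ATAD5. For the small subunits it was −1.15 ± 0.17 for RFC5, −1.04 ± 0.14 for RFC4, −0.82 ± 0.17 for RFC3 and −0.49 ± 0.12 for RFC2, and for PCNA −0.59 ± 0.12. The adjusted p-values of these 9 in edgeR lay between 5.28e-05 for FEN1 and 0.0111 for RFC2. RFC1 did not pass, with −0.26 (95% interval −0.44 to −0.07, adjusted p = 0.0549, edgeR). It was called under 6 of 22 alternatives: upper-quartile scaling, library size only, the strict filter, the replicate block, and without untreated parental replicate 2 (−0.31) or treated degron replicate 1 (−0.30). Over the 22 its adjusted p in edgeR and DESeq2 ran from 0.0241 to 0.147. Without treated parental replicate 2, 3 genes rather than 6 passed the DEG cut-off.

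The study's own contrast set treated degron cells beside treated parental cells, 2 groups that also enter the comparisons above. All 10 genes were lower in treated degron cells, against 23.1% of tested genes, with no overlap between libraries for any of them (27.2% of tested genes), and 6 were DEGs (3.38% of tested genes). CHTF18, at 43.6, 75.2 and 48.1 CPM in the treated parental libraries, was 3.12-fold lower in treated degron cells, and RFC4 was 3.04-fold lower. DSCC1, at 39.3, 58.0 and 46.1 CPM in treated parental cells, was 3.00-fold lower. RFC5 was 2.26-fold, ATAD5 2.14-fold and RFC3 2.07-fold lower. FEN1 stood at 170, 226 and 173 CPM in treated parental cells and was 1.90-fold lower in degron cells, and RFC2 was 1.67-fold, RFC1 1.37-fold and PCNA 1.31-fold lower. PCNA had the smallest difference here, with a log2 fold change of −0.39 (95% interval −0.58 to −0.21, adjusted p = 0.00121, edgeR). Without treated parental replicate 2, 3 genes rather than 6 were DEGs.

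For RFC4 and CHTF18 the difference between the lines came with an offset of their whole chromosomes. The median log2 fold change of the 938 tested genes of chromosome 3 was −0.26 between the treated lines, and that of the 725 genes of chromosome 16 was −0.31. Less these medians, RFC4 was −1.35 and CHTF18 −1.33, in place of −1.61 and −1.64. The medians of the chromosomes of the other 8 genes lay between −0.13 for that of DSCC1 and 0.08. Within each line, all of these chromosome medians lay between −0.08 and 0.03, so the comparisons with Dox/IAA inside a line carried no such offset.

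Before treatment, RFC1, RFC2 and RFC4 were already lower in degron than in parental cells, and FEN1, which is not a loader subunit, was higher. RFC4 was at 79.9, 80.6 and 69.8 CPM in parental and 51.3, 52.1 and 51.7 CPM in degron cells, a log2 fold change of −0.57 ± 0.09 (adjusted p = 0.000135, edgeR). The median of chromosome 3 was −0.27, and RFC4 less this median was −0.30. Less the median of the 60 tested genes within 5 Mb of it (−0.26), RFC4 was −0.31. The call was made on the value before subtraction. RFC2 (−0.25 ± 0.08, adjusted p = 0.0302, edgeR) and RFC1 (−0.20 ± 0.06, adjusted p = 0.0199, edgeR) were lower as well, which made 3 of 10 against 15% of tested genes. FEN1 was higher, at 226, 233 and 239 CPM in degron against 162, 204 and 186 CPM in parental cells (0.34 ± 0.11, adjusted p = 0.0259, edgeR), 1 of 10 against 13.2% of tested genes. The libraries of 5 genes did not overlap and were lower in degron cells (RFC1 to RFC4 and CHTF18; 21.9% of tested genes), and those of FEN1 did not overlap and were higher (21.6%). PCNA had a log2 fold change of 0.20 (adjusted p = 0.0865, edgeR), CHTF18 of −0.39 (adjusted p = 0.0996, edgeR) and RFC5 of −0.03 (adjusted p = 0.902, edgeR). The median of chromosome 16 was −0.30, and CHTF18 less this median was −0.09. Less the median of the 160 tested genes within 5 Mb of it (−0.24), CHTF18 was −0.15. The number of DEGs among the 10 between the untreated lines was 0 by this cut-off, which rests on an unadjusted p by edgeR, and 1.30% of tested genes were DEGs lower and 2.84% DEGs higher in degron cells.

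These calls between untreated lines, except that of RFC4, were lost when certain single libraries were left out. Leaving a library out also makes its group smaller, so a lost call does not show dependence on that library. Without untreated parental replicate 1, untreated parental replicate 2 or untreated degron replicate 2, RFC4 alone remained among the lower ones. FEN1 was not called without untreated parental replicate 1 or 3 or untreated degron replicate 2 or 3. Without untreated parental replicate 2 or treated parental replicate 2, which shares the estimate of the spread, PCNA was called as higher too (0.32 and 0.21). RFC1 was also not called without untreated degron replicate 3 (−0.19), RFC2 without untreated degron replicate 1 (−0.22), and CHTF18 was called without treated parental replicate 2 (−0.39).

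Per length of the gene model, the order of levels was led by the clamp in every group. The deposited table gives 1 length per gene, for genes with 2 (PCNA) to 20 (CHTF18) annotated transcripts. The transcripts expressed may differ in length, so the order between genes, and the shares given below, hold for this length only. PCNA stood at 193 ± 4.71 CPM per kb (SD, n = 3) in untreated degron cells and 108 ± 7.92 in treated ones, and at 167 ± 19.5 and 141 ± 15.1 in the parental groups. FEN1 came next and RFC2 after it in all 4 groups, with 93.9 ± 2.65 and 29.7 ± 1.49 CPM per kb in untreated degron cells. CHTF18 and ATAD5 were the lowest in all groups, ATAD5 with 3.42 ± 0.23 CPM per kb in untreated and 1.27 ± 0.26 in treated degron cells. In untreated parental cells RFC5, RFC4, DSCC1 and RFC1 followed RFC2 in this order, and neighbours among these 4 overlapped. In treated parental cells RFC2 overlapped RFC5, which lay above RFC1, and from RFC1 on RFC4, DSCC1, RFC3 and CHTF18 each overlapped the gene before. In untreated degron cells the order after RFC2 was RFC5, RFC1, DSCC1 and RFC4, of which RFC1 overlapped DSCC1 and DSCC1 overlapped RFC4. With Dox/IAA, RFC1 came right after RFC2 in degron cells, above RFC5 and with no overlap with it (14.9 ± 0.74 against 10.9 ± 1.10 CPM per kb). RFC3, RFC4 and DSCC1 then lay together between 6.11 and 6.80 CPM per kb on average, with overlap between neighbours.

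**Figure D3:**
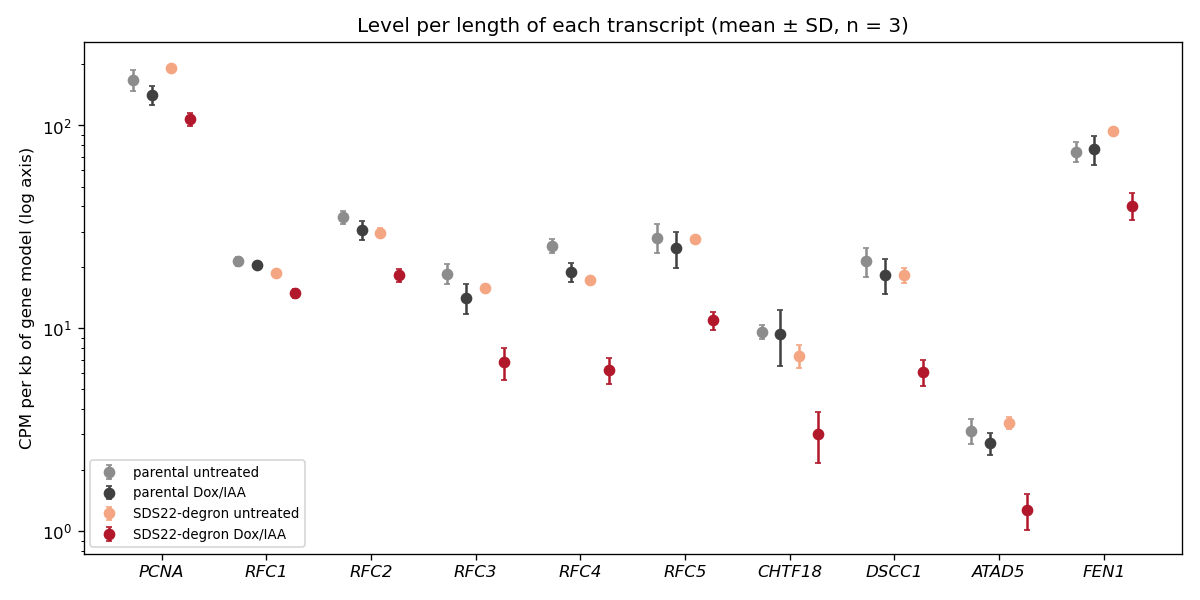
Level of each transcript per kb of gene model, in CPM per kb on a log axis, as mean ± SD of 3 libraries for each of the 4 groups. PCNA is highest in every group and ATAD5 lowest, and the treated degron group is the lowest of the 4 for each gene.

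The unequal falls changed the proportions of loader transcripts within a library, which do not depend on the scaling between libraries. Both quantities described here were chosen after the members' values had been seen and carry no test. The level of RFC1 per length over the mean of RFC2 to RFC5 was 0.850, 0.824 and 0.807 in untreated degron libraries and 1.32, 1.48 and 1.45 in treated ones. It was 0.791, 0.763 and 0.845 in untreated and 1.02, 0.792 and 1.00 in treated parental libraries. The degron groups were apart, and the parental groups overlapped. Of the summed per-length levels of the large subunits RFC1, CHTF18 and ATAD5, RFC1 took 63.5% ± 1.73 in untreated and 77.7% ± 3.71 (SD, n = 3) in treated degron cells, against 62.8% ± 1.51 and 63.2% ± 6.04 in parental cells. The share of CHTF18 went from 24.9% ± 2.19 to 15.7% ± 4.43 in degron cells, and that of ATAD5 from 11.6% ± 0.83 to 6.61% ± 1.26. In parental cells the share of CHTF18 was 28.1% ± 0.86 without and 28.5% ± 5.83 with Dox/IAA, and these groups overlapped. That of ATAD5 was 9.13% ± 0.74 and 8.35% ± 0.26, which did not overlap, and it already lay apart between the untreated lines. Transcript proportions do not give the amounts of the protein complexes.

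**Figure D4:**
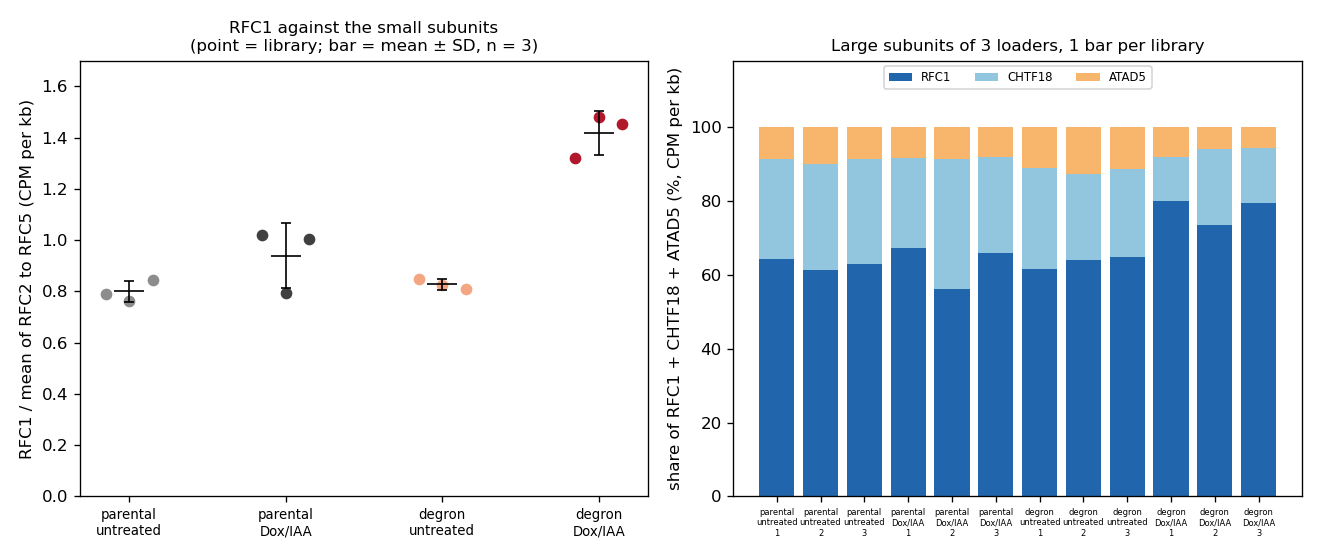
Left, RFC1 over the mean of RFC2 to RFC5, both in CPM per kb, by library with the group mean ± SD (n = 3); right, the shares of RFC1, CHTF18 and ATAD5 in their sum (percent of CPM per kb), 1 bar per library. The treated degron libraries lie between 1.32 and 1.48 on the left, above all others, and their RFC1 share lies between 73.4% and 80.1%.

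The genes that work around the clamp were described by lists, whose counts stand against the shares over all tested genes: 25.5% lower and 26.0% higher with Dox/IAA in degron cells, 15.7% lower and 15.9% higher in parental cells, and 8.35% lower and 6.03% higher in the interaction. Of 14 genes of Okazaki fragment synthesis and maturation, 13 fell and 1 rose with Dox/IAA in degron cells (median −0.81), while 6 fell and 1 rose in parental cells, and 11 were called as lower in the interaction with a median of −0.57. The smallest p in the interaction was that of POLA2, the accessory subunit of DNA polymerase α, at −1.38 (adjusted p = 3.8e-05, edgeR). RNASEH2A, the catalytic subunit of the RNase H2 enzyme, followed at −0.86 (adjusted p = 6.25e-05, edgeR), and the primase PRIM1 at −1.05 (adjusted p = 0.000123, edgeR). The gene that rose was POLD4, the small subunit of DNA polymerase δ, by 1.07 in degron and 0.89 in parental cells on the log2 scale, from 2.26 to 2.81 CPM in untreated to 4.64 to 5.58 CPM in treated libraries. Its interaction was 0.19 (adjusted p = 0.672, edgeR).

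Of 18 other proteins that bind PCNA, 16 transcripts fell and 1 rose in degron cells (median −0.94), 5 fell in parental cells, and 12 were called as lower and 1 as higher in the interaction (median −0.66). CHAF1A, which deposits histones behind the fork, had an interaction of −0.99 (adjusted p = 0.000159, edgeR), the exonuclease EXO1 −1.14 and the licensing factor CDT1, which is destroyed on PCNA, −0.65 (both adjusted p = 0.000292, edgeR). The gene that rose was CDKN1A, the p21 inhibitor that binds both cyclin-dependent kinases and PCNA. It was between 254 and 272 CPM in untreated parental, 258 and 297 in treated parental, 445 and 551 in untreated degron and 753 and 891 in treated degron libraries. Its interaction was 0.65 (adjusted p = 0.0011, edgeR), and its untreated groups already differed by 0.94.

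Of 16 genes that modify PCNA with ubiquitin or bypass lesions, 6 fell and 3 rose in degron cells (median −0.08), 4 fell in parental cells, and 4 were called as lower in the interaction (median −0.09). USP1, which removes ubiquitin from PCNA, had −0.64 (adjusted p = 0.00256, edgeR), PARPBP −0.74 (adjusted p = 0.0138, edgeR) and the conjugating enzyme UBE2N −0.33 (adjusted p = 0.0282, edgeR). Of 7 genes of alternative loader partners and the 9-1-1 checkpoint clamp, 3 fell in degron and 0 in parental cells (median −0.11 in degron cells), and 2 were called as lower in the interaction, TOPBP1 at −0.90 and RHNO1 at −0.54. RAD1, a ring subunit of the 9-1-1 clamp, had −0.39 in the interaction (adjusted p = 0.0723, edgeR). RAD17, which takes the place of RFC1 in the loader of the 9-1-1 clamp, had a log2 fold change of 0.05 in degron cells (adjusted p = 0.587, edgeR), and CHTF8, the subunit beside CHTF18 and DSCC1, had −0.11 (adjusted p = 0.0998, edgeR). In parental cells the count for this list was also 0 at an unadjusted p under 0.05, by the likelihood ratio test and by DESeq2.

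**Figure D5:**
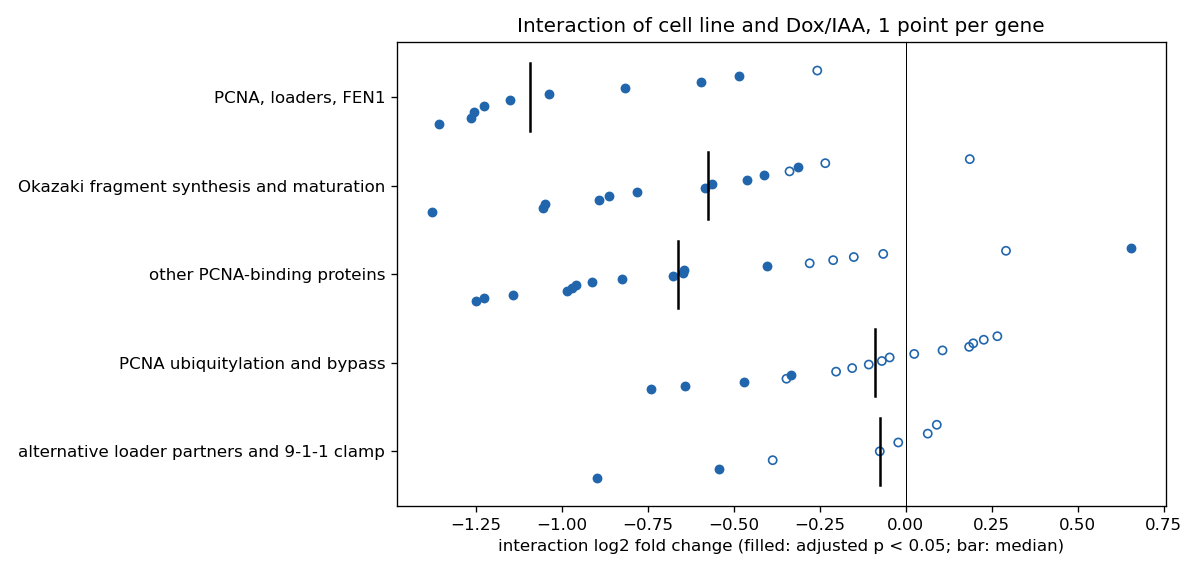
Interaction log2 fold change of the 10 genes and of the 4 lists around them, 1 point per gene, filled where the adjusted p was under 0.05 by edgeR, with the median of each list as a bar. The medians run from −1.09 for the 10 genes to −0.08 for the alternative loader partners and the 9-1-1 clamp.

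The 10 genes shared a low level in the treated degron libraries. Between the untreated lines 3 were called as lower and 1, FEN1, as higher in degron cells, against 15% and 13.2% of tested genes. The mean standardized level of the 10 genes was −1.27, −1.68 and −1.64 in treated degron libraries and between 0.075 and 0.98 in the others. Correlations among the 10 genes include this fall, which was described above, and are not further support for it. The correlation of each with the mean of the other 9 (Pearson's r of log2 CPM, as a description over 12 libraries that share groups) was between 0.857 for PCNA and 0.994 for DSCC1. Among all other tested genes, those whose log2 CPM followed the mean standardized level of the 10 most closely were MCM4, a subunit of the replicative helicase (r = 0.996), BUB1B, a spindle checkpoint kinase (0.996), TICRR, which takes part in origin firing (0.995), the lamin LMNB1 (0.994) and the mitotic kinesin KIF23 (0.994). MCM4 averaged 391 ± 12.5 CPM in untreated and 151 ± 25.1 CPM (SD, n = 3) in treated degron cells, and 426 ± 45.4 and 366 ± 45.4 CPM in the parental groups. Summed over the 10 genes, the level was 1009 ± 9.69 CPM in untreated and 515 ± 39.2 CPM in treated degron cells, and 1008 ± 90.6 and 903 ± 117 CPM in the parental groups.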

How the data were processed

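RNA from 12 HCT116 libraries, 3 in each of 4 groups taken from the sample labels, was analysed as 1 table of raw counts per gene, as deposited by the authors without normalization. The submitters' processing notes name cutadapt 1.15, Bowtie2 2.3.3.1, STAR 2.5.2b, SAMtools 1.5, featureCounts 1.5.3 and the build GRCh38; their roles, order and strand setting are not given in the sources used here. The deposited table also gives positions, exon numbers and lengths, which served for CPM per kb, and the GC content of each gene as a percent computed by the authors, which served for the GC correction.

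A filter (filterByExpr by group, with 10 as its minimum count) was followed by TMM scaling and by 1 model of 4 group means in edgeR 4.0.16 (R 4.3.3). The 5 comparisons (4 between groups, and the interaction) used the quasi-likelihood F test with Benjamini-Hochberg adjustment over all 16657 tested genes, and a call was an adjusted p under 0.05. Comparisons that share a group are not independent. The common biological coefficient of variation was 7.48%. Each standard error and 95% interval was derived from the fold change and its F statistic. Alternatives were the likelihood ratio test that the study used, DESeq2 1.42.0, other normalizations and filters, only the groups compared, a replicate block, a GC correction and each library left out. The procedure was tested on simulated data.

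The members and lists were chosen with earlier results of these data known. All 10 members are named in every comparison. Of each list the 3 genes with the smallest p in the interaction are named, and POLD4, CDKN1A, RAD1, RAD17 and CHTF8 were singled out for their values or role. The series text speaks of independent experiments, and no 2 libraries held identical counts (chi-square per degree of freedom between replicates 2.16 to 9.73). The replicate numbers were checked as pairs through the correlation of deviations from the group means. Every one of the 3 pairs was over 0.1 between the parental groups (0.124, 0.246 and 0.131) and between the treated groups (0.101, 0.133 and 0.138), so the numbers were taken to pair samples there and not in the other comparisons. Even so, the fold changes, intervals and calls given for these comparisons came from the fit without a replicate block. The block was run as an alternative. Promoter sequences are from RefSeq (GRCh38.p14). The number of count columns left without a sample was 0.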

Additional observations from a re-analysis of the deposited data

Results flagged for a closer look

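For 9 of the 10 genes the Dox/IAA effects in the 2 lines differed by a test of the difference itself, the interaction in edgeR with an adjusted p under 0.05. The difference (degron effect minus parental effect, log2 scale) was −0.59 for PCNA and −0.49 for RFC2. It was −0.82 for RFC3, −1.04 for RFC4 and −1.15 for RFC5. For the alternative loaders it was −1.25 for CHTF18, −1.36 for DSCC1 and −1.23 for ATAD5, and for FEN1 it was −1.26. RFC1, at −0.26, was not among them. Treated parental replicate 2, which lay above its group mean for 9 of the 10 genes, enters each of these differences, and without it 9 of the 10 were still called. Its part in the sizes of the differences was not tested beyond leaving it out.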

How the results depend on the processing

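Within degron cells and between the treated lines, all 10 genes were lower under each of the 23 alternatives, and in the interaction 9 or 10 were under each of the 22 that could be fitted. Between the untreated lines, 2 genes were higher in place of 1 with upper-quartile normalization, with only the groups compared and with the replicate block, and 0 with the GC correction. There 5 were lower in place of 3 with no filter and with only the groups compared. Leaving out 1 library at a time gave 1 to 4 lower and 0 to 2 higher genes between the untreated lines, 1 to 6 lower with Dox/IAA in parental cells, 3 to 6 DEGs in the interaction and 3 to 7 between the treated lines. Signs turned only for values not called. RFC5 between the untreated lines (−0.03) became 0.010 with the upper quartile, 0.0012 with library size only, and lay between −0.15 and 0.10 with 1 library left out (above 0 without untreated parental replicate 1 or 2). CHTF18 in parental cells (−0.03) became 0.031 with library size only and lay between −0.31 and 0.12 with 1 library left out (above 0 without treated replicate 1 or 3 or untreated replicate 2). FEN1 in parental cells (0.04) lay between −0.10 and 0.13 with 1 library left out (below 0 without treated replicate 2 or untreated replicate 1). Of the single-gene fold changes under all alternatives, 25 lost and 24 gained a call, 10 turned sign, 4 moved on subtracting a chromosome median and 1127 did none of these; the cause was not tested.

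As a block, the replicate number had same-number correlations of −0.06 to 0.25 over 18 pairs, and 13 were highest with their own number. Besides RFC2 in parental cells, it added calls for RFC1 in the interaction (−0.26, adjusted p = 0.0371, edgeR), and for PCNA (0.21) and CHTF18 (−0.38) between the untreated lines. In neither of these comparisons were the numbers taken to pair samples. Between the untreated lines the same-number correlations were 0.058, 0.098 and 0.118, each highest with its own number, so pairing there stays uncertain. With 3 libraries a group, the median SE over all tested genes was 0.110 in log2 between groups and 0.156 in the interaction, so small differences lie near the limit for a typical gene. The interaction of RFC1 (−0.26) was lower at an unadjusted p under 0.05 in edgeR, and missed the call on adjustment over all tested genes. Leaving out libraries for the ratios between genes was chosen after seeing the data. It moved none by more than the larger SD of the groups compared. In groups of 3 libraries, however, dropping a library cannot shift the group mean by as much as the SD of that group. The outcome was therefore fixed in advance and does not show how far the ratios depend on individual libraries.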
